A study of Rattus norvegicus with 30 samples.

Results

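Among the rat genes measured in the cervical spinal cord, 4 were followed here over the weeks after a thoracic spinal cord injury (SCI). They are ENSRNOG00000001859, ENSRNOG00000023338, ENSRNOG00000015445 and ENSRNOG00000016043, and they were chosen by their adjusted p in a joint test of the levels of rats killed 1, 3, 6 and 12 weeks after injury. The 4 stand among 32545 listed gene identifiers, of which 14801 passed a filter on low counts, all 4 included. The files give Ensembl identifiers only, and the RefSeq table used here matched 0 of the 4, so what these genes encode, where they lie and their sequences are not stated. For the same reason no pathway or cell type list could be read for them, and the labelled tissue was not checked against marker genes.

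The tissue was intermediate gray matter (laminae IV to VII of both sides) from a 1 mm slice at the third cervical vertebral level. It lies above the lesion and, per the series title, in the region where hindlimb corticospinal fibres sprout. All rats were adult female Long Evans (Crl:LE) rats older than 10 weeks, and each gave 1 library of ribosome-depleted total RNA. Sham-operated rats were taken at 1 and 12 weeks, and injured rats at 1, 3, 6 and 12 weeks after surgery, with 5 rats in each of these 6 groups. Larger groups had been operated, and these 5 were kept for the quality and amount of their RNA. No sham rats were taken at 3 and 6 weeks, so injured rats of those weeks are set beside the mean of both sham groups.

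As background, corticospinal axons carry motor commands from the cortex to the cord. The intermediate gray matter holds many of the interneurons through which these commands reach motor neurons. After a thoracic lesion, axons that lose their lumbar targets can grow side branches in the cervical cord above it, a form of plasticity studied in rats over the weeks that follow injury. Glial reactions and degeneration of cut fibres can also run over these weeks at a distance from a lesion.

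Library totals ran from 6459555 counts (6.46 M) to 37.4 M, and the SCI 6 weeks group was the shallowest with a mean of 9.67 M ± 2.73 (SD, n = 5). One library has labels at odds with each other: the title of sham 1 week replicate 1 makes it a control, but an injury stands in the fields for surgery and source. The title was followed here. Its level lay outside the range of the 5 SCI 1 week rats and inside that of the other sham rats of both times in 3 of the 4 genes (ENSRNOG00000001859, ENSRNOG00000023338 and ENSRNOG00000016043), and inside both ranges in ENSRNOG00000015445. The genes were chosen with this library kept out of SCI 1 week, and with it counted as injured none was called. Their values therefore cannot tell which label is right, and they were not used to place the library. Results of the edgeR tests are also given without it or with it counted as injured where that changes the call or moves a called value by over 1.5 times. Pearson correlations between the genes were rerun without it, but not with it counted as injured. Neither variant is given for Spearman's rho or for the relations with library measures.

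Levels are CPM, counts divided by the TMM-scaled total of their library, and the values of a group are listed from replicate 1 to replicate 5. The joint test among the 4 injured groups, which chose the genes, called 5 of 14801 genes (0.0338%; edgeR quasi-likelihood F-test, Benjamini-Hochberg adjusted p under 0.05). All differences among injured groups given below are therefore descriptions and carry no test. The same holds for differences of single weeks from sham and for counts of injured rats above or below every sham rat. The share of all genes with as many such rats was not counted, nor was it for counts of rats above or below a sham mean. In all 4 genes the injured rats of 1 and of 12 weeks overlapped the sham rats of the same week. In whole tissue, fewer cells that express a gene and less of its RNA per cell cannot be told apart.

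ENSRNOG00000001859 was the only one of the 4 that was low early and high late, and it had the largest fitted fold difference between 1 and 12 weeks. At 1 week after injury the rats stood at 6.59, 8.15, 7.97, 6.98 and 10.1 CPM, a mean of 7.95 ± 1.36 (SD, n = 5). At 3 weeks they stood at 7.96, 10.6, 9.08, 11.9 and 9.16 CPM, a mean of 9.73 ± 1.52. The 2 early groups overlapped, with 3 of the 5 rats of 3 weeks inside the range of 1 week and the other 2 above it. By 6 weeks the values were 12.7, 13.6, 11.3, 16.3 and 13.0 CPM (13.4 ± 1.85), and by 12 weeks 12.5, 15.8, 14.6, 12.0 and 15.2 CPM (14.0 ± 1.66). Every rat of 1 week lay below every rat of 6 and of 12 weeks, and every rat of 3 weeks below every rat of 12 weeks. Of all genes tested, 0.649% were lower without overlap at 1 than at 6 weeks, 1.16% at 1 than at 12 weeks and 0.270% at 3 than at 12 weeks. From 1 to 12 weeks the fitted log2 difference was 0.82 with a standard error of 0.145, or 1.77-fold.

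In ENSRNOG00000001859 the sham means lay nearer to the late than to the early injured means. Sham 1 week values were 15.0, 8.80, 11.5, 17.6 and 12.6 CPM (13.1 ± 3.35), and sham 12 weeks values 16.1, 14.2, 13.0, 17.8 and 16.8 CPM (15.6 ± 1.96). At 1 week after injury 4 of 5 rats lay below every one of the 10 sham rats, at 3 weeks 1 of 5, and at 6 and 12 weeks 0 of 5. The groups of 1 week overlapped through 2 rats, the lowest sham rat (sham 1 week replicate 2 at 8.80 CPM) and SCI 1 week replicate 5 at 10.1 CPM. Against sham, the fitted log2 difference was -0.73 (SE 0.144) at 1 week, -0.54 (SE 0.128) at 3 weeks, -0.09 (SE 0.127) at 6 weeks and -0.15 (SE 0.14) at 12 weeks. The groups in order of level were SCI 1 week, SCI 3 weeks, sham 1 week, SCI 6 weeks, SCI 12 weeks and sham 12 weeks, and the ranges of all neighbours in this order overlapped. The gap between neighbours was at most 1.17 times the larger of their SDs.

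This gene rests on the fewest counts, from 63 to 499 per library. Counting error alone gives a coefficient of variation of 6.48% to 9.21% in the 6 groups, whereas the measured coefficient of variation was 11.8% to 25.6%. The other 3 genes had between 1565 and 38272 counts per library.

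**Figure D1:**
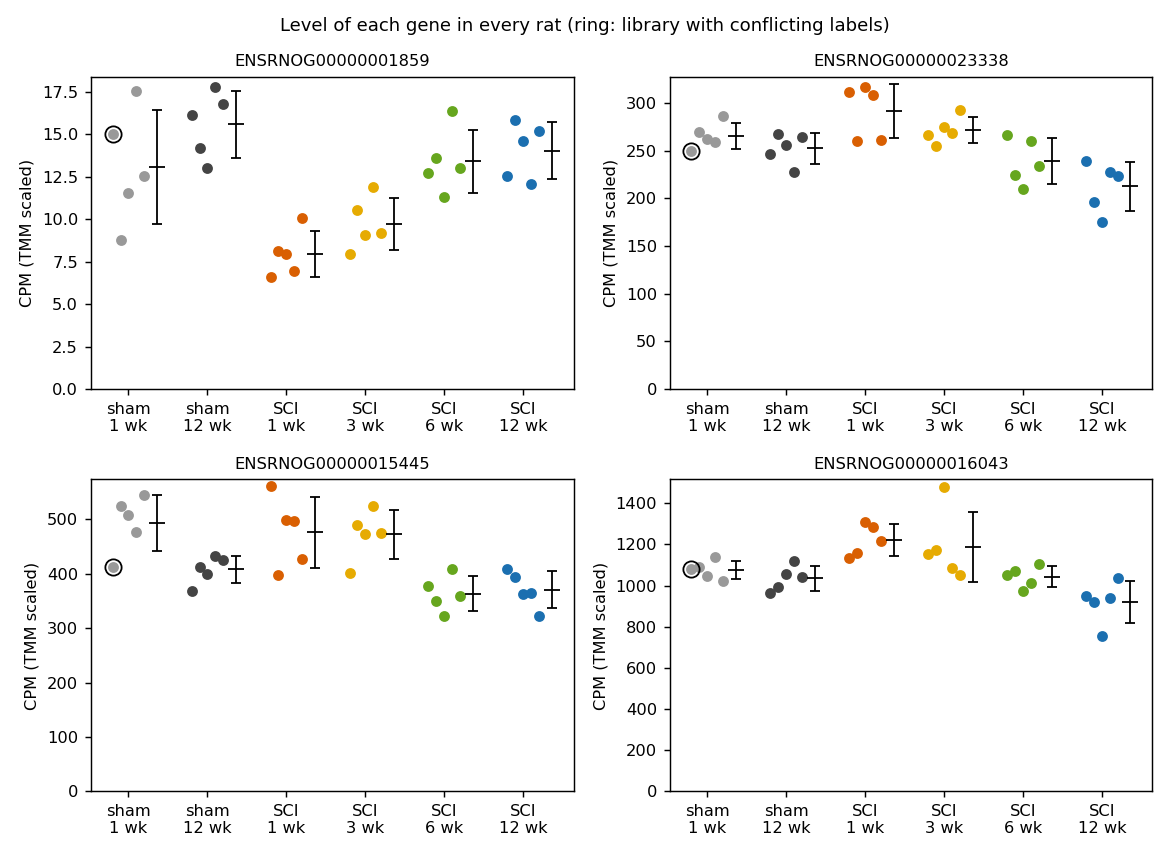
Level of each of the 4 genes in CPM (vertical axis, from 0) for every rat (dots, replicate 1 to 5 from left to right) in the 2 sham and 4 injured groups, with the group mean and SD (bars) and a ring around sham 1 week replicate 1. ENSRNOG00000001859 goes from a mean of 7.95 CPM at 1 week to 14.0 at 12 weeks after injury, and the other 3 genes are lower at 12 weeks than at 1 week.

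ENSRNOG00000023338 had a lower mean at each later time after injury, above both sham means at 1 week and below both at 12 weeks. The 5 rats of 1 week stood at 311, 260.1, 317, 308 and 262 CPM (292 ± 28.3, SD, n = 5). They lay in 3 rats at 308 to 317 CPM and 2 at 260.1 and 262. At 3 weeks the values were 266, 255, 275, 268 and 292 CPM (271 ± 13.7), and at 6 weeks 266, 224, 209, 260.1 and 234 CPM (239 ± 24). At 12 weeks they were 239, 196, 176, 228 and 224 CPM (212 ± 25.8). Every rat of 12 weeks lay below every rat of 1 week and of 3 weeks, as was so for 0.986% and 0.351% of all genes tested, while each pair of consecutive times overlapped.

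The fitted log2 steps of ENSRNOG00000023338 were -0.10 (SE 0.074) from 1 to 3 weeks, -0.18 (SE 0.075) from 3 to 6 weeks and -0.17 (SE 0.075) from 6 to 12 weeks. They add to -0.46 (SE 0.074) from 1 to 12 weeks, or 0.728-fold. Sham rats lay between the ends of this series, with 249.5, 269, 262, 259 and 286 CPM at 1 week (265 ± 13.6) and 246, 267, 256, 228 and 264 CPM at 12 weeks (252 ± 16). Against sham of the same week, injured rats differed by 0.14 (SE 0.074) on the log2 scale at 1 week and by -0.25 (SE 0.074) at 12 weeks. At 3 and 6 weeks it was 0.07 (SE 0.064) and -0.12 (SE 0.065) against both sham groups. At 1 week 3 of 5 injured rats lay above every sham rat, and at 12 weeks 3 of 5 lay below every sham rat.

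The order of ENSRNOG00000023338 from low to high was SCI 12 weeks, SCI 6 weeks, sham 12 weeks, sham 1 week, SCI 3 weeks and SCI 1 week. All neighbours overlapped, and no gap between neighbours exceeded 1.02 times the larger SD.

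ENSRNOG00000016043 had a like course. Its values at 1 week were 1132, 1159.8, 1310.0, 1286 and 1217 CPM (1221 ± 77.2, SD, n = 5). At 3 weeks they were 1152, 1172, 1479, 1083 and 1050.1 CPM (1187 ± 170), with replicate 3 standing high and widening the spread. At 6 weeks the rats stood at 1049, 1071, 975, 1012 and 1105 CPM (1042 ± 51), inside the range of the sham rats. Those of 12 weeks stood at 950.0, 921, 753, 939 and 1039 CPM (920.3 ± 104), with replicate 3 the lowest of all 30 libraries. The rats of 1 week lay above all rats of 6 and of 12 weeks, and those of 3 weeks above all rats of 12 weeks. The shares of all genes tested that did so were 0.588%, 0.986% and 0.351%.

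The fitted log2 difference of ENSRNOG00000016043 from 1 to 12 weeks after injury was -0.41 (SE 0.074), or 0.754-fold. Sham values were 1080.0, 1092, 1048, 1139.9 and 1023 CPM at 1 week (1076 ± 44.7) and 965, 992, 1055, 1119 and 1043 CPM at 12 weeks (1035 ± 59.7). Injured rats differed from sham by 0.18 (SE 0.074) at 1 week, 0.17 (SE 0.063) at 3 weeks, -0.02 (SE 0.064) at 6 weeks and -0.17 (SE 0.074) at 12 weeks on the log2 scale. At 1 week 4 of 5 injured rats lay above every sham rat, and at 12 weeks 4 of 5 lay below every sham rat. In order of level the groups were SCI 12 weeks, sham 12 weeks, SCI 6 weeks, sham 1 week, SCI 3 weeks and SCI 1 week, with all neighbours overlapping and gaps of at most 1.10 times the larger SD.

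ENSRNOG00000015445 had its largest fitted step between 3 and 6 weeks, with little difference between 1 and 3 weeks or between 6 and 12 weeks. The rats of 1 week stood at 561, 397, 499, 497 and 426 CPM (476 ± 65, SD, n = 5) and those of 3 weeks at 401, 489, 473, 524 and 475 CPM (472 ± 44.7). At 6 weeks the values were 378, 350.5, 322, 408 and 359 CPM (363 ± 32.1), and at 12 weeks 409, 394, 364, 365 and 322 CPM (371 ± 33.5). All pairs of injured groups overlapped in this gene, with 1 rat of 1 week at 397 and 1 of 3 weeks at 401 CPM. The fitted log2 steps were -0.01 (SE 0.084), -0.38 (SE 0.084) and 0.03 (SE 0.084) between consecutive times, and the difference from 1 to 12 weeks was -0.36 (SE 0.084), or 0.778-fold.

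It was also the gene in which the 2 sham groups stood farthest apart relative to their error. Sham 1 week rats had 413, 524, 508, 477 and 545 CPM (493 ± 51.4) and sham 12 weeks rats 369, 412, 399, 433 and 426 CPM (408 ± 25.3). The 2 sham groups overlapped only through the low value of sham 1 week, 413 CPM, which lay inside the range of sham 12 weeks. It belongs to replicate 1, the library with conflicting labels. Without that library the log2 difference between 12 and 1 weeks was -0.34 in sham rats (edgeR adjusted p = 0.362). In injured rats it was -0.36 in the same fit. ENSRNOG00000015445 in injured rats differed from sham by -0.05 (SE 0.084) at 1 week and -0.14 (SE 0.084) at 12 weeks, against sham of the same week. The values were 0.08 (SE 0.072) at 3 weeks and -0.30 (SE 0.074) at 6 weeks against both sham groups. With sham means this far apart, the size of both values depends on the reference, and at 3 weeks the direction does too. At 3 weeks after injury the mean of 472 CPM fell between the sham means, under 493 and over 408 CPM. At 6 weeks the mean of 363 CPM fell under both. From low to high the order was SCI 6 weeks, SCI 12 weeks, sham 12 weeks, SCI 3 weeks, SCI 1 week and sham 1 week, with all neighbours overlapping and gaps of at most 1.45 times the larger SD. The comparisons at 3 and 6 weeks share all their sham rats.

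The levels of the sham groups were not part of the contrast that chose the genes, so time after the operation without injury was tested on them. The sham rats did enter the estimate of the spread in that fit: with only the 20 injured libraries 1 of the 4 genes was called, and without sham 1 week replicate 4 it was 2. The choice and this test are therefore not fully separate. Age is given only as older than 10 weeks, so age and time after the operation cannot be told apart, in sham or injured rats. None of the 4 genes differed between sham 12 weeks and sham 1 week once adjusted over all genes (edgeR quasi-likelihood test). In that comparison 0 of 14801 genes passed (0%), with 1219 (8.24%) at an unadjusted p under 0.05, while DESeq2 called 7 genes and limma-voom 0, none of them among the 4. ENSRNOG00000015445 differed by -0.27 on the log2 scale with a 95% interval of -0.44 to -0.10 (edgeR unadjusted p = 0.00236, adjusted p = 0.398, from 0.164 to 0.681 over other settings), and 5 of 5 rats of sham 12 weeks lay below the mean of sham 1 week. ENSRNOG00000001859 differed by 0.24 with an interval of -0.04 to 0.52 (edgeR adjusted p = 0.683). That value was 0.14 without sham 1 week replicate 2 and 0.37 without sham 1 week replicate 4 (edgeR adjusted p = 0.921 and 0.547). The 2 other genes differed by -0.07 (ENSRNOG00000023338, interval -0.22 to 0.08) and -0.06 (ENSRNOG00000016043, interval -0.21 to 0.09), with edgeR adjusted p of 0.85 and 0.891.

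The differences over time in injured and in sham rats are set side by side. For ENSRNOG00000015445 the log2 difference between 12 and 1 weeks was -0.36 in injured and -0.27 in sham rats, and the difference between the 2 was -0.09 (SE 0.118). For ENSRNOG00000023338 it was -0.46 in injured and -0.07 in sham rats, a difference of -0.39 (SE 0.105). ENSRNOG00000016043 gave -0.41 and -0.06, a difference of -0.35 (SE 0.104), and ENSRNOG00000001859 gave 0.82 and 0.24, a difference of 0.58 (SE 0.201). These differences share the injured rats that chose the genes, so no test is given for them.

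**Figure D2:**
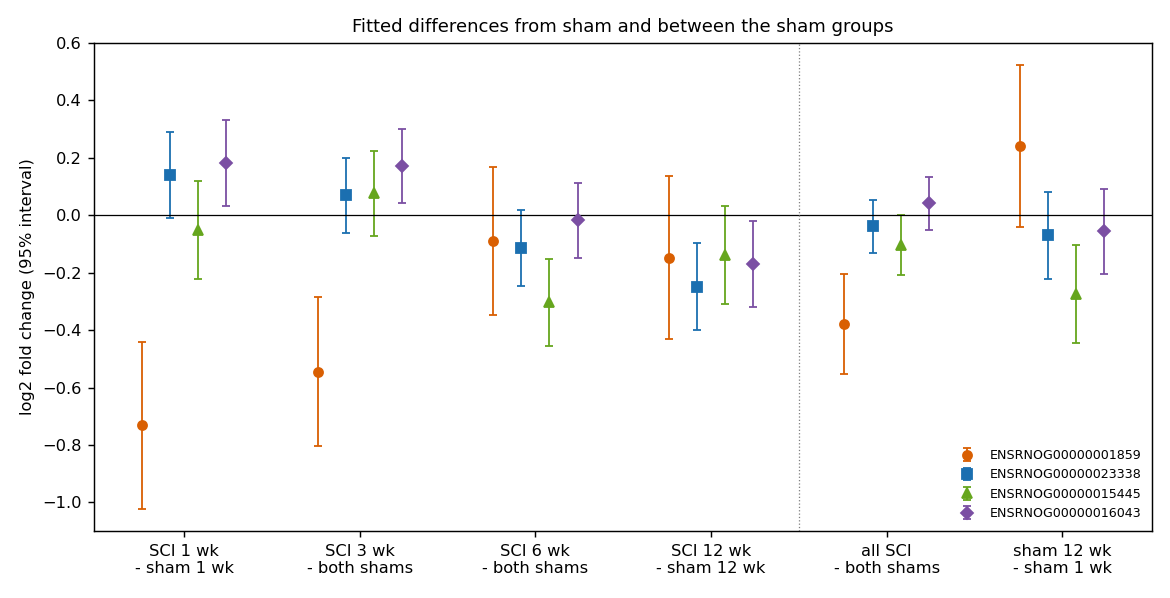
Fitted log2 fold changes (vertical axis) with 95% intervals (bars) for the 4 genes: left of the dotted line injured rats of each week against sham, right of it all injured against both sham groups and sham 12 weeks against sham 1 week. Left of the line the injured rats are those that chose the genes, so whether an interval there holds 0 is no test. ENSRNOG00000001859 is at -0.73 at 1 week and -0.15 at 12 weeks, whereas ENSRNOG00000023338 and ENSRNOG00000016043 go from 0.14 and 0.18 to -0.25 and -0.17.

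The average over all injured rats is a contrast other than the differences among them, with the same estimate of the spread, and it was tested against the average of both sham groups. After adjustment no gene of the 4 passed, nor did any of the 14801 (0%; edgeR quasi-likelihood test), with 1931 (13.0%) at an unadjusted p under 0.05. DESeq2 called 13 genes and limma-voom 0. Of the 4 genes ENSRNOG00000001859 came closest, with 16 of 20 injured rats below the mean of the sham groups of 14.3 CPM. All rats of SCI 1 week and SCI 3 weeks, the groups with the lowest means, were among them. The log2 difference of this gene was -0.38 with a 95% interval of -0.55 to -0.20 (edgeR unadjusted p = 8.9e-05, adjusted p = 0.151). It passed with DESeq2 (adjusted p = 0.0353) and not with limma-voom (adjusted p = 0.0983), and with sham 1 week replicate 1 counted as injured it was -0.30 (edgeR adjusted p = 0.379, the highest over the other settings).

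ENSRNOG00000015445 differed by -0.10 in that comparison, with an interval of -0.21 to -0.00058 (edgeR unadjusted p = 0.0488, adjusted p = 0.38), and 13 of 20 injured rats lay below the sham mean. ENSRNOG00000023338 had means above both sham means at 1 and 3 weeks and below both at 6 and 12 weeks. ENSRNOG00000016043 had means above both at 1 and 3 weeks, between them at 6 weeks and below both at 12 weeks. The averages of these genes differed by -0.04 (interval -0.13 to 0.05) and 0.04 (interval -0.05 to 0.13), with edgeR adjusted p of 0.757 and 0.74. In each of these 2 genes 11 of 20 injured rats lay above and 9 below the sham mean.

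Whether the 4 genes move together from rat to rat was read within groups, after the group mean of log2 CPM was taken off, since the group means carry the pattern the genes were chosen for. Over 6 pairs of genes and 30 rats, none passed for Pearson's r (permutation test within groups, 100000 permutations, Benjamini-Hochberg adjusted over 6). The closest pair was ENSRNOG00000023338 with ENSRNOG00000015445, with r = 0.49 (permutation p = 0.0143, adjusted p = 0.0859) and a Spearman rho of 0.54 (permutation p = 0.00741, adjusted p = 0.0445). In 22 of 30 rats both deviated to the same side. Without the 2 rats farthest from the median of the first gene, r was 0.49. Leaving out SCI 12 weeks replicate 5 or sham 12 weeks replicate 4 made the pair pass, with r = 0.57 and 0.55 (permutation adjusted p = 0.0111 and 0.0399).

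ENSRNOG00000023338 and ENSRNOG00000016043, whose 6 group means had the highest correlation of the 6 pairs (r = 0.96, a description), had a low correlation within groups. Their r was 0.26 and rho 0.16 (permutation p = 0.229 and 0.431, adjusted p = 0.459 and 0.861). Without the 2 farthest rats, SCI 12 weeks replicate 3 among them, r was -0.07, so the value rests on those rats. ENSRNOG00000015445 and ENSRNOG00000016043 gave r = -0.03 and rho = -0.04 (permutation p = 0.878 and 0.851, adjusted p = 0.893 and 0.944).

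The gene that was low early passed with none of the other 3. ENSRNOG00000001859 gave r = -0.29 with ENSRNOG00000023338 (rho = -0.36, permutation p = 0.102 and 0.0632, adjusted p = 0.306 and 0.19). With ENSRNOG00000015445 r was -0.10 and rho -0.05, and with ENSRNOG00000016043 r was 0.03 and rho 0.01 (permutation p of r 0.66 and 0.893, adjusted p = 0.893 each; permutation p of rho 0.807 and 0.944, adjusted p = 0.944 each). Across the 6 group means the same 3 pairs had r of -0.74, -0.62 and -0.85, which the choice of the genes favours.

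**Figure D3:**
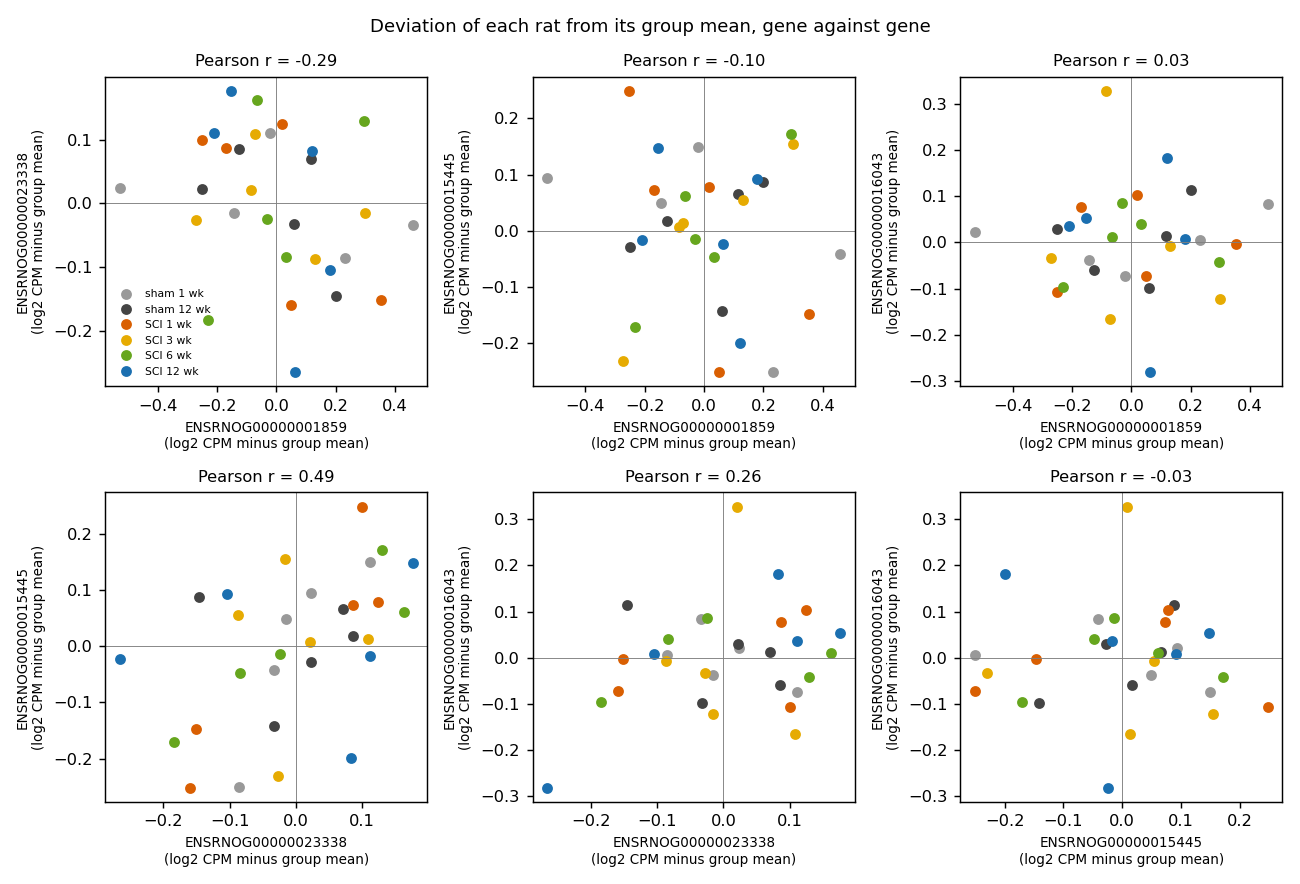
Deviation of each of the 30 rats from its group mean in log2 CPM, gene against gene for the 6 pairs, with colours for the 6 groups and Pearson's r above each panel. The pair ENSRNOG00000023338 and ENSRNOG00000015445 has r = 0.49 (permutation adjusted p = 0.0859), and the other 5 pairs have r between -0.29 and 0.26.

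Each gene was also compared with all other genes tested by the same within-group Pearson r over 30 libraries. The most alike of 14800 were ENSRNOG00000027888 for ENSRNOG00000001859 (r = 0.75), ENSRNOG00000016252 for ENSRNOG00000023338 (r = 0.70), ENSRNOG00000002419 for ENSRNOG00000015445 (r = 0.74) and ENSRNOG00000019465 for ENSRNOG00000016043 (r = 0.74). None of the 4 was among the 3 genes most alike to another of the 4. The share of genes with an absolute r over 0.5 was 1.73%, 2.03%, 3.80% and 2.22% for the 4 genes in the same order. The points share libraries and scaling, and the highest of so many values is high by choice, so these are descriptions.

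Library measures were set beside the genes in 8 within-group relations. None passed for library total, with r from -0.19 to 0.16 and rho from -0.18 to 0.14 (permutation, adjusted p of r from 0.728 to 0.845). ENSRNOG00000016043 had the highest with the share of counts in the 10 most abundant genes, r = 0.55 and rho = 0.44 (permutation p = 0.00709 and 0.025, adjusted p of r 0.0567), and r was 0.37 without the 2 farthest rats. That share was 10.3% ± 1.09 (SD, n = 5) in SCI 12 weeks, 11.0% ± 0.683 in SCI 1 week and 11.8% ± 0.278 in sham 12 weeks. It was 12.0% ± 0.501 in SCI 6 weeks, the highest of the 6 groups, 10.8% ± 1.03 in SCI 3 weeks and 10.8% ± 1.07 in sham 1 week. The mean of the gene was 920 CPM in SCI 12 weeks, where gene and share were both lowest, and 1042 in SCI 6 weeks. It was 1187 in SCI 3 weeks, 1221 in SCI 1 week, 1076 in sham 1 week and 1035 in sham 12 weeks. Whether the share is a cause of these differences was not tested. With the share as a covariate, the log2 difference of ENSRNOG00000016043 from 1 to 12 weeks after injury was -0.36 instead of -0.41, and those of ENSRNOG00000001859, ENSRNOG00000023338 and ENSRNOG00000015445 were 0.82, -0.45 and -0.39. Between the sham groups that of ENSRNOG00000016043 was then -0.14 instead of -0.06 (edgeR adjusted p = 0.732). With log2 library total as a covariate the 4 differences were 0.82, -0.46, -0.36 and -0.41, in the order in which the genes are listed first.

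The values that chose the genes lay close to the threshold. Their adjusted p in the joint test (edgeR) was 0.024 for ENSRNOG00000001859 and ENSRNOG00000023338 and 0.0284 for the other 2. Just inside the threshold and not among the 4 stood ENSRNOG00000016552 (edgeR adjusted p = 0.0284), with 724 ± 38.1 CPM at 1 week and 595 ± 45.3 at 12 weeks after injury. Just outside stood ENSRNOG00000056753 (edgeR adjusted p = 0.0691), with 29.8 ± 3.28 and 20.9 ± 3.72 CPM. Both, like 3 of the 4, were lower at 12 than at 1 week.

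Whether all 4 are called depends on single rats. Leaving out each of the 30 libraries in turn, all 4 genes were called in 15 cases and none in 5, namely without SCI 1 week replicates 1, 3 or 4, SCI 6 weeks replicate 2 or SCI 12 weeks replicate 3. Exactly 2 were called without SCI 3 weeks replicate 2, SCI 6 weeks replicate 3, SCI 12 weeks replicate 4 or sham 1 week replicate 4. ENSRNOG00000001859 and ENSRNOG00000023338 were each called in 25 cases, ENSRNOG00000016043 in 19 and ENSRNOG00000015445 in 17. With sham 1 week replicate 1 counted as injured none was called (edgeR adjusted p = 0.487 for ENSRNOG00000001859 and 0.0565 to 0.0785 for the others), and without that library all 4 were. The direction from 1 to 12 weeks held in every one of these fits, with log2 differences of 0.61 to 0.92 for ENSRNOG00000001859, -0.51 to -0.40 for ENSRNOG00000023338, -0.42 to -0.29 for ENSRNOG00000015445 and -0.46 to -0.34 for ENSRNOG00000016043. The choice of the genes fixes this direction, so it is no sign of stability.

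**Figure D4:**
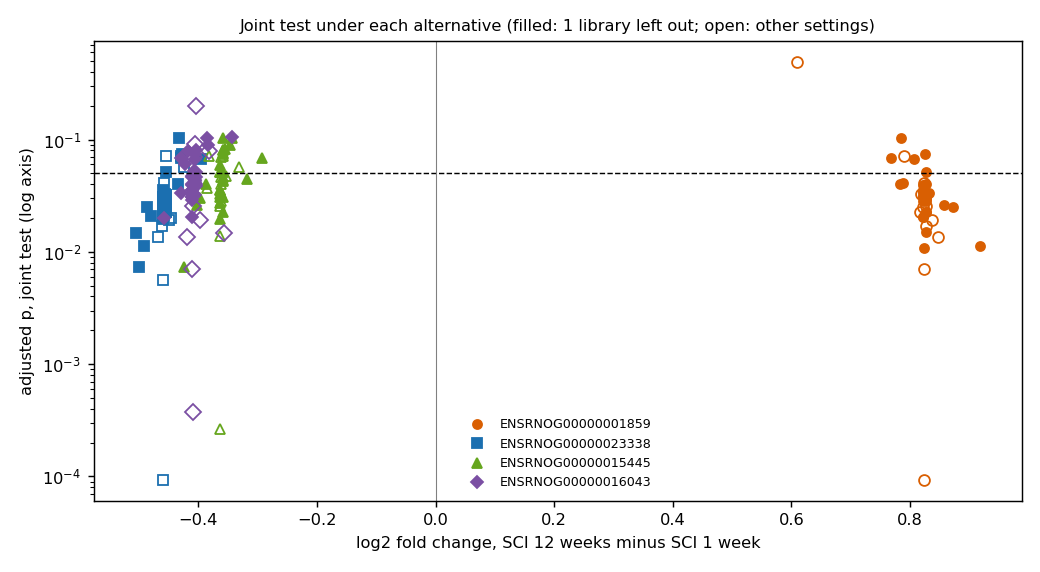
Log2 difference between SCI 12 weeks and SCI 1 week (horizontal axis) and adjusted p of the joint test (vertical axis, log scale, dashed line at 0.05) for the 4 genes under each alternative, with filled marks for fits that leave out 1 library and open marks for other settings. The differences stay between 0.61 and 0.92 for ENSRNOG00000001859 and between -0.51 and -0.29 for the other 3 genes, while the adjusted p falls on either side of the threshold.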

How the data were processed

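Tools named in the submitters' processing notes are STAR 2.5.3a, featureCounts, Subread, Trimmomatic and bcl2fastq 2.19.05, with build Rnor_6.0. Which did what, the annotation and the strand setting of counting are not given in the sources, so reads of overlapping or near-identical genes cannot be told apart. The authors deposited raw counts, as 1 table of genes for each rat. Within groups no pair of libraries agreed within sampling noise (60 pairs, chi-square per degree of freedom 4.76 to 45.9).

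Counts were fitted with edgeR 4.0.16 in R 4.3.3 (TMM, filterByExpr, robust quasi-likelihood, 1 model of 6 groups, Benjamini-Hochberg over 14801 genes, threshold 0.05), and tested on simulated data first. The filtered genes held 99.9% of counts. Standard errors come from the fold change and F. For correlations, log2 CPM had a prior count of 2 (Python 3.11.15, numpy 2.4.6). DESeq2 1.42.0 and limma-voom (limma 3.58.1) were alternatives. The genes, lists and tests were chosen with earlier results of these data known. The rule for named genes took the 4 genes, those beside the threshold, and the 3 genes most alike to each, of which only the first is printed because identifiers have no names (0 of 32545 matched); planned marker and pathway lists were not run for that reason. Alternatives chosen after seeing the data were 2 covariates (library total, share of the 10 most abundant genes) and leaving out the 4 shallowest libraries.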

Additional observations from a re-analysis of the deposited data

How the results depend on the processing

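The joint test among injured groups called 4 of the 4 genes in 8 of 12 settings other than leaving out 1 library. It called 2 with the replicate number as a block, 1 with only the 20 injured libraries, 0 without the 4 libraries under 9 M counts and 0 if sham 1 week replicate 1 was counted as injured, and it called 0 to 4 when 1 library was left out. The cause was not tested. Over all genes it called 5, but 30 with DESeq2, 3 with the block and 0 or 1 in the other 3 settings just named. Each rat gave 1 library, and the titles do not say whether the replicate numbers mark a shared day. Deviations of same-numbered libraries had a median correlation of 0.0065 (-0.153 to 0.146 over 75 pairs), and those of other numbers -0.00116. Of 30 libraries, 6 matched their own number best in another group, where 1 of 5 libraries has that number. These values cannot show whether a day was shared. The block is given here only.

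Between the sham groups, all 168 values under alternatives kept direction and side of the threshold (ENSRNOG00000001859 from 0.14 to 0.37 without 1 library), as did 163 of 164 for all injured against both sham groups. The exception was ENSRNOG00000001859, which passed with DESeq2 (-0.38, adjusted p = 0.0353). Leaving out 1 library gave -0.43 to -0.32 there, with edgeR adjusted p from 0.0554 to 0.344.

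Of the within-group correlations, ENSRNOG00000023338 with ENSRNOG00000015445 passed with library totals alone (r = 0.55, permutation adjusted p = 0.0335) and ran from 0.43 to 0.57 without 1 library, with permutation adjusted p from 0.0111 to 0.206. It passed without SCI 12 weeks replicate 5 or sham 12 weeks replicate 4. Values near 0 changed sign. ENSRNOG00000015445 with ENSRNOG00000016043 was 0.036 with library totals alone and -0.092 to 0.084 without 1 library. ENSRNOG00000001859 with ENSRNOG00000016043 was -0.011 without the 2 farthest libraries and -0.047 to 0.096 without 1. ENSRNOG00000023338 with ENSRNOG00000016043, at 0.26 over all 30 libraries, was -0.075 without the 2 farthest. It kept its sign without 1 library, at 0.012 to 0.35. Depth limits ENSRNOG00000001859 most, whose lowest count was 63.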
